A study of Mus musculus with 8 samples.

Results

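The genes described here are 10 genes of the circadian clock: Per1, Per2, Per3, Cry1, Cry2, Arntl (also called Bmal1), Clock, Nr1d1, Nr1d2 and Dbp. They were chosen by name as core members and an output gene of the clock, not by their values. All 10 stood among the 30419 gene names of the count table, and 9 had enough counts to be tested. Dbp, with 0 to 2 counts in a library, was not tested.

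The cells were early-passage mouse embryonic fibroblasts, cultured from embryos at E13.5 in DMEM with 10% serum. Wild-type (WT) cells, labelled Dino+/+, were compared with cells that carry lox sites on both alleles of Dino, labelled Dino lox/lox and called mutant here. Dino is a long noncoding RNA gene next to Cdkn1a. Each genotype received vehicle (control) or 0.2 µg/mL of the DNA-damaging drug doxorubicin for 8 h, which gave 4 groups of 2 libraries, A and B. The labels name no Cre and do not say whether A and B came from separate embryos or cultures, so p-values measure the spread between these libraries, which may be technical. RNA was taken at 1 time after treatment, so a shift in the phase of a rhythm and a change in its mean level cannot be told apart.

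Total counts ran from 25482805 to 33285171 per library, and levels are given as CPM, each gene's counts relative to its library's scaled total. A count of 0 allows up to 3 counts, or 0.0880 to 0.120 CPM, which covers counting error only. The p53 target Mdm2 rose with doxorubicin by a log2 fold change of 3.09 ± 0.07 (SE) in WT and 2.91 ± 0.07 in mutant cells, and Cdkn1a rose by 2.46 ± 0.10 and 2.50 ± 0.10. All 10 fibroblast markers were detected, at a summed 3815 to 4534 CPM over the libraries. Singly they moved both ways: 3 were called higher and 4 lower with doxorubicin in WT cells, and 1 and 4 in mutant cells. In mutant against WT control cells 2 were called higher and 0 lower. By contrast, 4 epithelial markers summed to at most 0.813 CPM and 4 skeletal muscle markers to at most 1.03 CPM. The sex-linked genes differed between genotypes: Xist stood at 0.277 ± 0.0236 CPM (SD, n = 2) in WT control and 233 ± 29.4 CPM in mutant control, and Ddx3y at 546 ± 48.4 and 74.0 ± 0.00800 CPM. With doxorubicin WT cells had 0.304 ± 0.102 CPM of Xist and mutant cells 522 ± 74.5 CPM, and 460 ± 17.5 and 59.6 ± 1.31 CPM of Ddx3y. Of 5 sex-linked genes, 0 were called higher and 3 lower with doxorubicin in WT cells, and 1 higher and 2 lower in mutant cells. Genotype and the sex makeup of the cultures cannot be told apart in any comparison of mutant with WT cells, and the part of the sex-linked genes' shift in the responses to doxorubicin was not tested.

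In the clock, the transcription factors ARNTL and CLOCK pair and switch on the Per and Cry genes through E-box elements, and the PER and CRY proteins then return to the nucleus and repress that pair. A second loop runs through the nuclear receptors NR1D1 and NR1D2 (REV-ERB alpha and beta), which repress Arntl and Clock. DBP and its relatives act on D-box elements in output genes and in some Per genes, and fibroblasts in culture keep such cycles, which serum or other stimuli can synchronise.

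The promoter windows below show which letters of these elements the genes carry near their start. They come from RefSeq on GRCm38.p6, from 250 bases before to 50 after a start, and 9 of the 10 genes had at least 1 window (13 windows in all). Per2 had no window and was not searched, and the 1 window of Dbp held none of the motifs. Each line gives the bases around a match 5′ to 3′ on the gene's strand, with the matched letters in capitals.
Per1 E-box, chr11:69098763-69098808, plus strand: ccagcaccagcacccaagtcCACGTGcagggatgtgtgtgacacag
Cry1 E-box, chr10:85185089-85185134, minus strand: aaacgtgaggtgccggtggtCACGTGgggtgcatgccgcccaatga
Cry2 E-prime box, chr2:92434210-92434255, minus strand: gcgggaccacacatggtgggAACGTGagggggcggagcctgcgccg
Nr1d1 E-prime box, chr11:98775380-98775425, minus strand: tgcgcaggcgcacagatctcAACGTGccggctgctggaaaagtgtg
Per3 first D-box, chr4:151044843-151044890, minus strand: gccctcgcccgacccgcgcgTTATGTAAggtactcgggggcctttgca
Per3 second D-box, chr4:151044796-151044843, minus strand: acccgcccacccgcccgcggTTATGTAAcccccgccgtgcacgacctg
Clock receptor motif, chr5:76303596-76303641, minus strand: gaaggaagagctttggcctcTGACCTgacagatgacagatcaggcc
Nr1d2 receptor motif, chr14:18239158-18239203, minus strand: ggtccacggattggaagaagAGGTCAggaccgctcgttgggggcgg

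Motifs were searched on both strands, and none of them contains another. The E-box CACGTG was in 2 of the 13 windows and in 7.15% of all 32851 windows of this length, and the E-prime box CACGTT in 3 of 13 and in 4.68%. The D-box, TTATGTAA or TTACGTAA, was in 1 of 13 windows, that of Per3, and in 1.06% of all windows. The nuclear receptor motif AGGTCA was in 4 of 13 and 16.3%, and the CRE TGACGTCA, the site of CREB, in 0 of 13 and 1.79%. Cry1 also held an E-prime box at base -79 from its start, Per1 a receptor motif at -137, and Arntl a receptor motif only at base 32 after its start. A match describes these letters and is no measure of binding.

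With doxorubicin, Arntl rose while its partner Clock and the repressor Nr1d2 fell, in WT and in mutant cells. In mutant cells Per3 also rose and Cry2 also fell. Per1, Per2, Cry1 and Nr1d1 passed the test in neither genotype. Of the 9 genes tested, 1 was higher and 2 were lower in WT cells (edgeR's quasi-likelihood test, Benjamini-Hochberg adjusted p under 0.05), where 29.3% of all 12255 genes were called higher and 28.1% lower. In mutant cells 2 were higher and 3 lower, beside 28.3% and 25.9% of all genes. Their median log2 fold change was -0.14 in WT and -0.01 in mutant cells, and that of all genes 0.01 in both. Read against these shares, the counts are no result about the clock genes as a set.

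**Figure D1:**
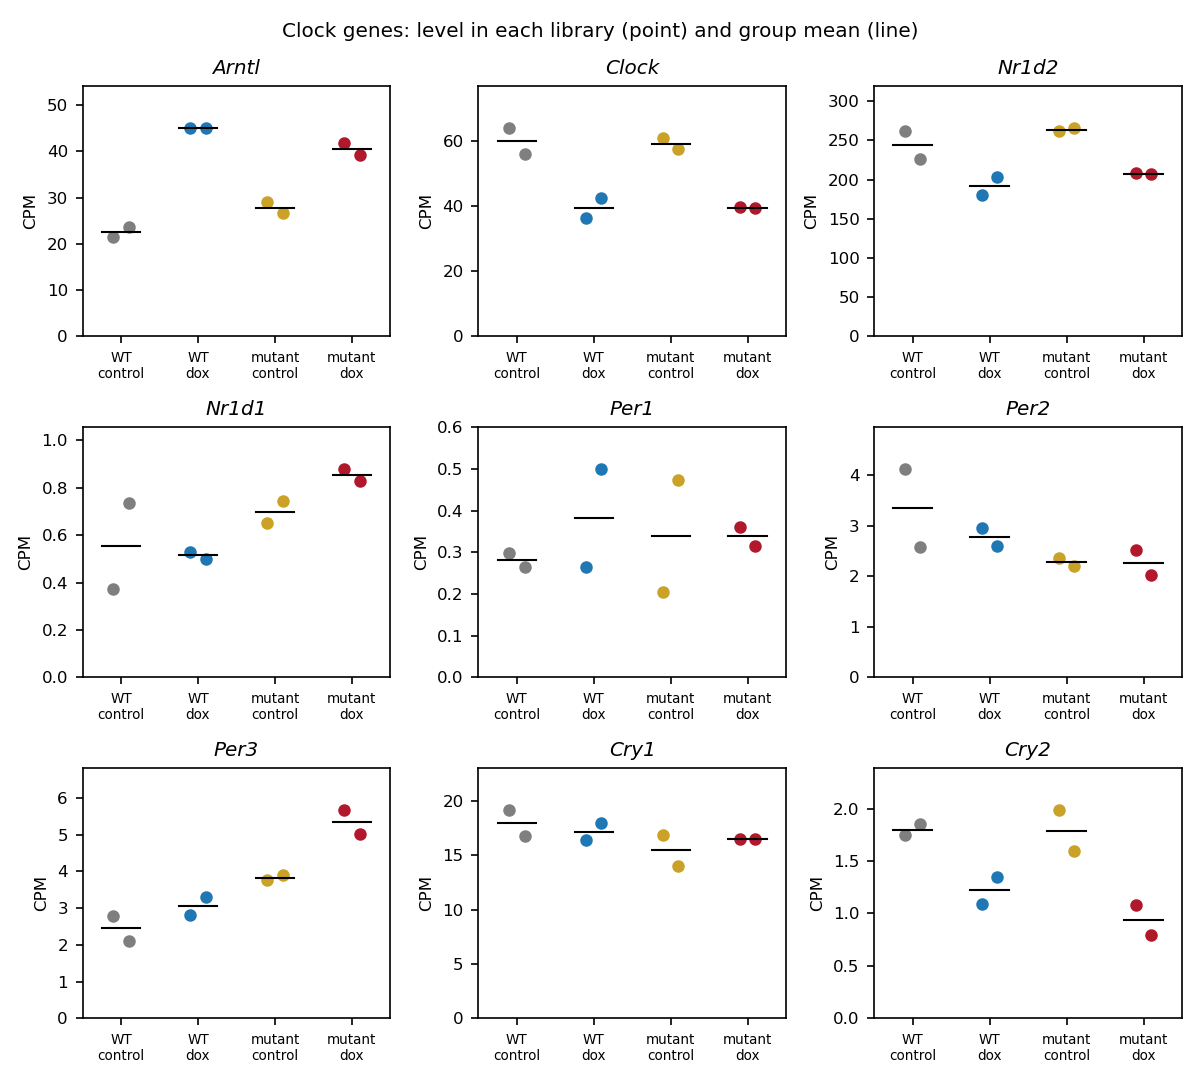
Level of each of the 9 tested clock genes (y axis, CPM, from 0, own scale per gene) in every library, by group on the x axis. Points are the 2 libraries of a group and the line is their mean. Arntl is higher and Clock, Nr1d2 and Cry2 are lower in both doxorubicin groups than in their controls, and Per3 is highest in mutant cells with doxorubicin.

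Arntl, the activator whose protein binds E-boxes together with CLOCK, stood at 21.4 and 23.6 CPM in WT control and at 45.0 and 45.1 CPM in WT with doxorubicin. In mutant cells it was 29.0 and 26.6 CPM in control and 41.8 and 39.2 CPM with doxorubicin. Every doxorubicin library lay above every control library of either genotype. The change was 2.00-fold in WT cells (log2 1.00 ± 0.09 SE, edgeR adjusted p = 3.11e-09) and 1.46-fold in mutant cells (log2 0.54 ± 0.09, adjusted p = 2.05e-05). Both calls held under every alternative setting and without any 1 library. An antisense gene of the later annotation, Gm45355, shares 33 exon bases with Arntl, and reads of that stretch cannot be assigned without strand.

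Clock, the activator that pairs with ARNTL, moved the other way. It was 64.2 and 56.2 CPM in WT control and 36.4 and 42.6 CPM with doxorubicin. Mutant cells had 61.2 and 57.6 CPM in control and 39.9 and 39.5 CPM with doxorubicin. The treated and control libraries did not overlap in either genotype, whereas the mutant libraries lay within the range of the WT libraries under both treatments. Clock fell by 0.61 ± 0.09 on the log2 scale in WT cells (1.52-fold lower, adjusted p = 5.97e-06) and by 0.58 ± 0.09 in mutant cells (1.50-fold lower, adjusted p = 1.28e-05), and both calls held under every alternative and without any 1 library. In bulk RNA, fewer cells of a type and less RNA per cell cannot be told apart. Summed macrophage and leukocyte markers were 20.9 to 22.3 CPM in WT control and 31.9 to 33.5 CPM in WT with doxorubicin, with 5 of 7 called higher. In mutant cells they were 27.6 to 28.0 and 32.0 to 36.7 CPM, with 1 of 7 called higher. Endothelial markers summed to 2.08 to 2.96 and 6.63 to 11.1 CPM in WT cells, and to 1.34 to 1.73 and 5.68 to 5.85 CPM in mutant cells. Of the 3 endothelial markers tested, 1 was called higher and 0 lower with doxorubicin in each genotype. No marker on these lists was at 0 in all 8 libraries, and the part of these cell types in the clock genes' changes was not tested.

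The 2 activators thus moved in opposite directions within the same libraries, and the ratio of their counts does not depend on library scaling. It was 0.333 and 0.421 in WT control and 1.24 and 1.06 in WT with doxorubicin. The mutant values were 0.474 and 0.462 in control and 1.05 and 0.993 with doxorubicin. The ratio was higher in each of the 4 doxorubicin libraries than in any of the 4 control libraries. It is given as a description with no test, and since gene length is not in it, it does not compare the level of one gene with that of the other.

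**Figure D2:**
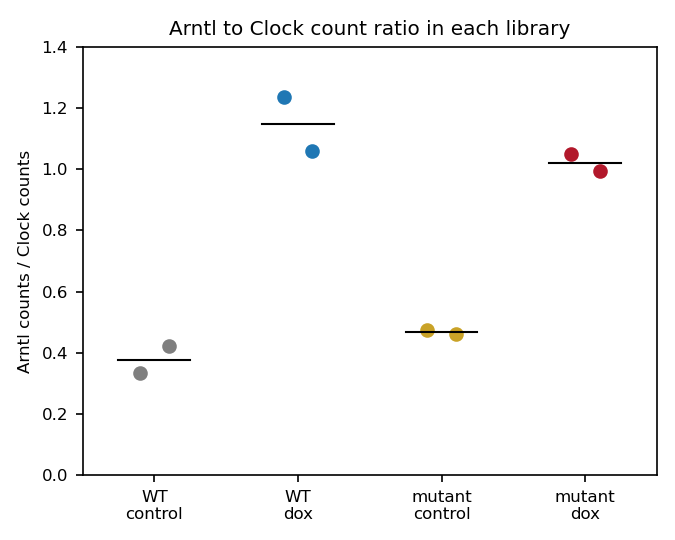
Counts of Arntl divided by counts of Clock (y axis, from 0) in each library, by group on the x axis, with the group mean as a line. Means are 0.377 and 1.15 in WT control and doxorubicin, and 0.468 and 1.02 in mutant cells, and no doxorubicin library lies in the range of the controls.

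Nr1d2, the REV-ERB beta repressor, was 262 and 226 CPM in WT control and 181 and 204 CPM in WT with doxorubicin. Mutant cells had 262 and 266 CPM in control and 208 and 207 CPM with doxorubicin. Control and treated libraries did not overlap. Nr1d2 fell by 0.35 ± 0.08 on the log2 scale in each genotype, or 1.27-fold, with an adjusted p of 0.000615 in WT and 0.000618 in mutant cells. Each value rests on 5197 to 7856 counts, and both calls held under every alternative run.

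Nr1d1, the REV-ERB alpha repressor, had only 10 to 25 counts in a library. It stood at 0.372 and 0.734 CPM in WT control and 0.530 and 0.501 CPM in WT with doxorubicin, where the control libraries enclosed the treated ones. Mutant cells had 0.652 and 0.746 CPM in control and 0.880 and 0.830 CPM with doxorubicin, which did not overlap. On the log2 scale the response was -0.14 ± 0.41 (SE) in WT and 0.29 ± 0.38 in mutant cells, and neither passed the test. The WT value turned to 0.46 without WT control B. Thra, on the opposite strand, shares 263 exon bases with Nr1d1 and had 2 to 13 counts per library, so the assignment of these few reads is uncertain.

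Per1, an early responder among the Period repressors, was measured with only 6 to 16 counts in a library. It was 0.297 and 0.264 CPM in WT control, 0.265 and 0.501 CPM in WT with doxorubicin, 0.206 and 0.474 CPM in mutant control, and 0.360 and 0.316 CPM in mutant with doxorubicin. All groups overlapped apart from WT control and mutant with doxorubicin. The log2 fold change in WT cells was 0.46 ± 0.54, with a 95% interval from -0.67 to 1.59, so a change of that size was not detectable at this depth. It turned to -0.08 without WT doxorubicin B.

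Per2, the Period gene most closely tied to rhythm in knockout animals, was 4.12 and 2.58 CPM in WT control and 2.95 and 2.60 CPM in WT with doxorubicin. Its mutant levels were 2.37 and 2.20 CPM in control and 2.52 and 2.02 CPM with doxorubicin. The 4.12 CPM of WT control A stood above all other libraries. The log2 fold change with doxorubicin was -0.26 ± 0.21 in WT (adjusted p = 0.324) and -0.01 ± 0.24 in mutant cells (adjusted p = 0.973). The direction in WT cells rests on single libraries: the value was -0.58 without WT control B (adjusted p = 0.0429) and turned to 0.10 without WT control A (adjusted p = 0.772), the ends of the range over all alternatives.

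Per3, the Period gene that is dispensable for the core rhythm, was the only one of the 3 Period genes with a call. It was 2.79 and 2.11 CPM in WT control and 2.82 and 3.32 CPM in WT with doxorubicin. Mutant libraries stood at 3.77 and 3.90 CPM in control and 5.68 and 5.02 CPM with doxorubicin. The groups stood in this order without overlap, although WT control A and WT doxorubicin A differed by less than the spread within either group. Doxorubicin gave a log2 fold change of 0.34 ± 0.19 in WT cells (adjusted p = 0.139), and Per3 rose by 0.48 ± 0.17 in mutant cells (1.39-fold, adjusted p = 0.0239). The mutant call was lost without mutant control A, mutant control B or mutant doxorubicin A (adjusted p = 0.103, 0.0688 and 0.149) and in DESeq2 (adjusted p = 0.0992), within a range of 0.0172 to 0.149 over all alternatives.

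Cry1, a strong repressor of the ARNTL and CLOCK pair, rested on 411 to 574 counts in a library. Its levels were 19.2 and 16.7 CPM in WT control, 16.4 and 18.0 CPM in WT with doxorubicin, 16.8 and 14.0 CPM in mutant control, and 16.4 CPM in both mutant doxorubicin libraries. Treated and control libraries overlapped in both genotypes. The log2 fold change was -0.06 ± 0.11 in WT cells (95% interval -0.29 to 0.17) and 0.09 ± 0.11 in mutant cells, neither past the test.

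Cry2, the second cryptochrome, was 1.75 and 1.85 CPM in WT control and 1.09 and 1.35 CPM in WT with doxorubicin. The mutant cells held 1.99 and 1.59 CPM in control and 1.08 and 0.791 CPM with doxorubicin. Treated libraries lay below control libraries in both genotypes. The log2 fold change was -0.56 ± 0.26 in WT cells, which missed the threshold (adjusted p = 0.0732), and Cry2 fell by 0.93 ± 0.29 in mutant cells (1.91-fold lower, adjusted p = 0.00854). With 20 to 63 counts per library, the mutant call was lost without mutant control A or mutant doxorubicin B (adjusted p = 0.0795 and 0.0963), within a range of 0.00335 to 0.0963 over all alternatives. An opposite-strand transcript of the later annotation, D930015M05Rik, shares 295 exon bases with Cry2 and had 0 counts in every library.

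Dbp, the PAR bZIP output factor driven by E-boxes, had 1 and 0 counts in WT control, 2 and 1 in WT with doxorubicin, 2 and 0 in mutant control, and 1 and 1 in mutant with doxorubicin. Each library was at or under the 3 counts that a count of 0 allows, so no fold is given. Sphk2, on the opposite strand with 539 shared exon bases, had 36 to 61 counts per library.

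**Figure D3:**
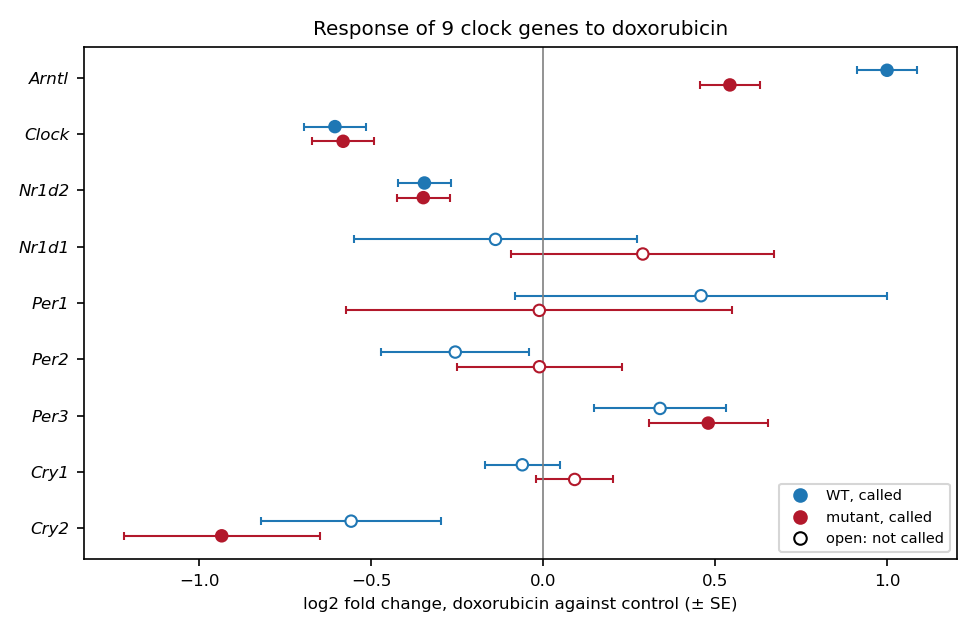
Log2 fold change of doxorubicin against control (x axis) for the 9 tested clock genes (y axis), with bars of 1 SE. Blue points are WT and red points mutant cells, and open points did not pass the adjusted p threshold of 0.05. Arntl lies right of 0 and Clock and Nr1d2 left of 0 in both genotypes, and the widest bars belong to Per1, with few counts.

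Whether Dino status alters these responses is asked by the difference between the mutant and WT responses, each of which has its own control libraries. None of the 9 clock genes passed (edgeR's quasi-likelihood test), beside 0.0734% of all genes, and 1 had an unadjusted p under 0.05. Here and below, no share of all genes was taken at an unadjusted p, so such counts are no result about the genes as a set. DESeq2 and limma-voom also called 0 and had 1 each at an unadjusted p under 0.05. That gene was Arntl, whose log2 response was lower by 0.46 ± 0.12 in mutant cells: the difference was -0.46 with a 95% interval of -0.72 to -0.20. Its adjusted p was 0.284, and 0.114 to 0.911 over the alternatives. The responses of Clock differed by 0.02 ± 0.13 (95% interval -0.24 to 0.29) and those of Nr1d2 by -0.00323 ± 0.11 (95% interval -0.23 to 0.22). Per3, past the threshold in mutant cells only, differed by 0.14 ± 0.26, and Cry2, likewise, by -0.38 ± 0.39. Neither is shown to respond differently in the 2 genotypes.

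Between genotypes, Per3 was the clock gene that passed the threshold, and it was higher in mutant cells under both treatments. These comparisons use the same libraries as the responses and are not independent of them. In control cells its mean was 3.84 ± 0.0876 CPM (SD, n = 2) in mutant and 2.45 ± 0.476 CPM in WT, a log2 difference of 0.66 ± 0.19 SE (1.58-fold, adjusted p = 0.0398). With doxorubicin its mean was 5.35 ± 0.468 and 3.07 ± 0.355 CPM, a log2 difference of 0.80 ± 0.18 (1.74-fold, adjusted p = 0.00561). It was the 1 clock gene called higher in each comparison, beside 2.75% of all genes in control cells and 3.92% with doxorubicin. In edgeR 0 of 9 were lower in either, beside 3.17% and 3.82% of all genes. At an unadjusted p under 0.05, 1 was lower in control cells in edgeR and in limma-voom and 0 in DESeq2, and 0 were lower with doxorubicin in all 3 tools.

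Both Per3 calls were lost in some fits that leave out a library and so leave its group with a single one. The log2 difference stayed above 0 in all alternatives, at 0.46 to 0.85 in control cells and 0.69 to 0.93 with doxorubicin. In control cells the call was lost without WT control B (log2 0.46, adjusted p = 0.446), mutant control A (0.146) or mutant control B (0.202) and in DESeq2 (0.150), over a range of 0.0133 to 0.446. With doxorubicin it was lost without WT doxorubicin A (adjusted p = 0.0730) or mutant doxorubicin A (0.0708), over a range of 0.000480 to 0.0730. Per3 lies within Camta1 on the same strand, with 0 shared exon bases. Camta1 differed by a log2 of 0.03 ± 0.10 in control cells and by 0.25 ± 0.10 with doxorubicin (adjusted p = 0.173), so it was not called in either.

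The other clock genes gave no call between genotypes. Arntl was 27.8 ± 1.71 CPM in mutant and 22.5 ± 1.57 CPM in WT control, libraries that did not overlap, and its log2 difference of 0.30 ± 0.09 fell just short (adjusted p = 0.0502, and 0.0348 to 0.386 over the alternatives). With doxorubicin the Arntl difference was -0.15 ± 0.09 (adjusted p = 0.342). For Per2 it was -0.53 ± 0.22 in control cells (adjusted p = 0.219), and for Nr1d1 0.73 ± 0.40 with doxorubicin (adjusted p = 0.334). For Clock the 95% interval ran from -0.20 to 0.16 in control cells and from -0.19 to 0.20 with doxorubicin.

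The 6 tested genes on each side of Per3 on chromosome 4 were read as well, a choice made after the values of Per3 were seen. Of these 12 genes, 0 were higher and 1 was lower in mutant control cells, and 0 were higher and 3 lower with doxorubicin. Over all genes 2.75% were higher and 3.17% lower in control cells, and 3.92% and 3.82% with doxorubicin. Genes beside some other clock genes held calls too. Of 12 around Nr1d2, 1 was higher and 1 lower in control cells, and 2 were lower with doxorubicin. Of 12 around Cry2, 1 was higher in control cells, and 1 was higher and 1 lower with doxorubicin. Those around Per1, Per2, Clock and Nr1d1 held at most 1 call per comparison, higher in each case. Those around Cry1 and Arntl held 0 in either comparison. Rere, a transcriptional corepressor, was lower in both, by a log2 difference of -0.62 ± 0.09 in control (adjusted p = 4.97e-05) and -0.47 ± 0.09 with doxorubicin (adjusted p = 0.00103). H6pd and Klhl21 were lower with doxorubicin, at -0.61 ± 0.18 and -0.40 ± 0.10. In control cells their log2 differences were -0.53 ± 0.17 and -0.35 ± 0.10, just short of a call (edgeR adjusted p = 0.0728 and 0.0529). Neural markers summed to 33.2 to 34.0 CPM in WT and 59.1 to 59.4 CPM in mutant control cells, and to 34.4 to 36.2 and 44.9 to 45.9 CPM with doxorubicin. Of the 4, 2 were called higher and 1 lower in mutant control cells. The part of these markers, and of the sex-linked difference between the cultures, in the Per3 result was not tested.

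**Figure D4:**
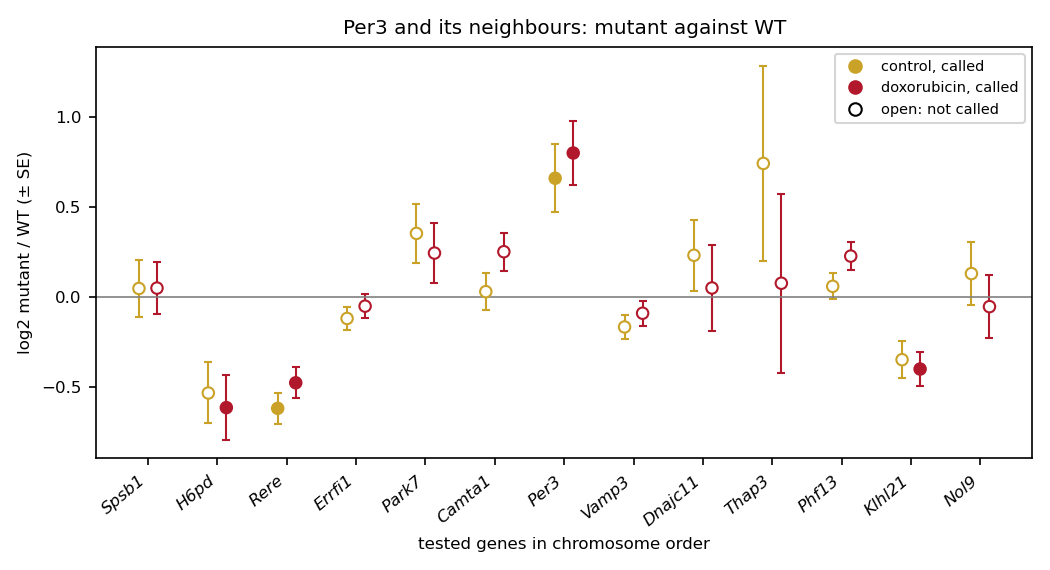
Log2 difference of mutant from WT (y axis, bars of 1 SE) for Per3 and the 6 tested genes on each side of it in chromosome order (x axis), in control (yellow) and doxorubicin-treated cells (red). Filled points passed the adjusted p threshold of 0.05. Per3 is the only filled point above 0, and Rere, H6pd and Klhl21 hold those below.

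A wider list of 42 names of clock genes by role, some of them alternative names of the same gene, was read beside these. Of these names 40 stood in the count table, and 34 were tested. In WT cells 7 were higher and 12 lower with doxorubicin, or 20.6% and 35.3%. The numbers were the same in mutant cells, though not all of the genes called lower were. Over all genes 29.3% were higher and 28.1% lower in WT cells, and 28.3% and 25.9% in mutant cells, and no test sets the list apart from these shares. The median log2 fold change was -0.08 in WT and -0.16 in mutant cells. With upper-quartile scaling the counts became 7 higher and 15 lower in WT cells and 6 and 14 in mutant cells. In mutant cells DESeq2 called 6 higher and 11 lower, and limma-voom 6 and 12. In the difference between the responses edgeR called 0, and edgeR, DESeq2 and limma-voom each had 2 at an unadjusted p under 0.05. Without a share of all genes at that threshold, these 2 of 34 are no result about the list.

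Among the kinases that phosphorylate PER and CRY, 1 of 7 was higher and 4 were lower in each genotype, where 29.3% and 28.3% of all genes were higher and 28.1% and 25.9% lower in WT and mutant cells. The 1 was Prkaa2, the catalytic alpha 2 subunit of AMP-activated kinase, which went from 2.83 ± 0.308 to 54.8 ± 1.13 CPM (SD, n = 2) in WT cells, 19.5-fold (adjusted p = 8.86e-18). In mutant cells it went from 3.22 ± 0.0518 to 52.4 ± 0.0578 CPM, 16.2-fold (adjusted p = 2.22e-17). The related Prkaa1 was lower in both, by a log2 of -0.50 ± 0.07 and -0.48 ± 0.07, together with the casein kinase genes Csnk1e, Csnk1a1 and Csnk2a1.

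Of the 2 PAR bZIP relatives of Dbp, Tef rose and Hlf passed in neither genotype. Hlf had only 2 to 16 counts in a library, with a log2 fold change of 0.47 ± 0.60 in WT and 0.80 ± 0.62 in mutant cells. Tef went from 5.25 ± 0.589 to 17.6 ± 1.16 CPM in WT cells, 3.33-fold (adjusted p = 1.89e-10), and from 5.59 ± 0.289 to 15.1 ± 1.92 CPM in mutant cells, 2.70-fold (adjusted p = 6.56e-09). Crem, a CREB family gene and 1 of 3 CREB inputs tested, rose by a log2 of 1.33 ± 0.11 in WT and 1.43 ± 0.11 in mutant cells.

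Wee1, a mitotic inhibitor kinase and clock output, fell from 198 ± 1.16 to 68.1 ± 1.02 CPM in WT cells, 2.91-fold (adjusted p = 6.66e-14). In mutant cells it fell from 194 ± 7.19 to 80.0 ± 3.22 CPM, 2.42-fold (adjusted p = 1.71e-12). Nampt, the enzyme of NAD salvage, was also lower, and Ccrn4l, which encodes Nocturnin, was higher in both genotypes. Of 9 cofactors, 6 were lower in WT cells and 5 in mutant cells, beside 28.1% and 25.9% of all genes, and the rest were not called. Nono, a partner of PER proteins, fell by 0.85 ± 0.07 and 0.73 ± 0.07 on the log2 scale. Among 3 activators, Npas2, which can stand in for CLOCK, rose by 0.98 ± 0.23 in WT cells (edgeR adjusted p = 0.000849). In mutant cells it rose by 0.58 ± 0.23, near the threshold (edgeR adjusted p = 0.0413).

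**Figure D5:**
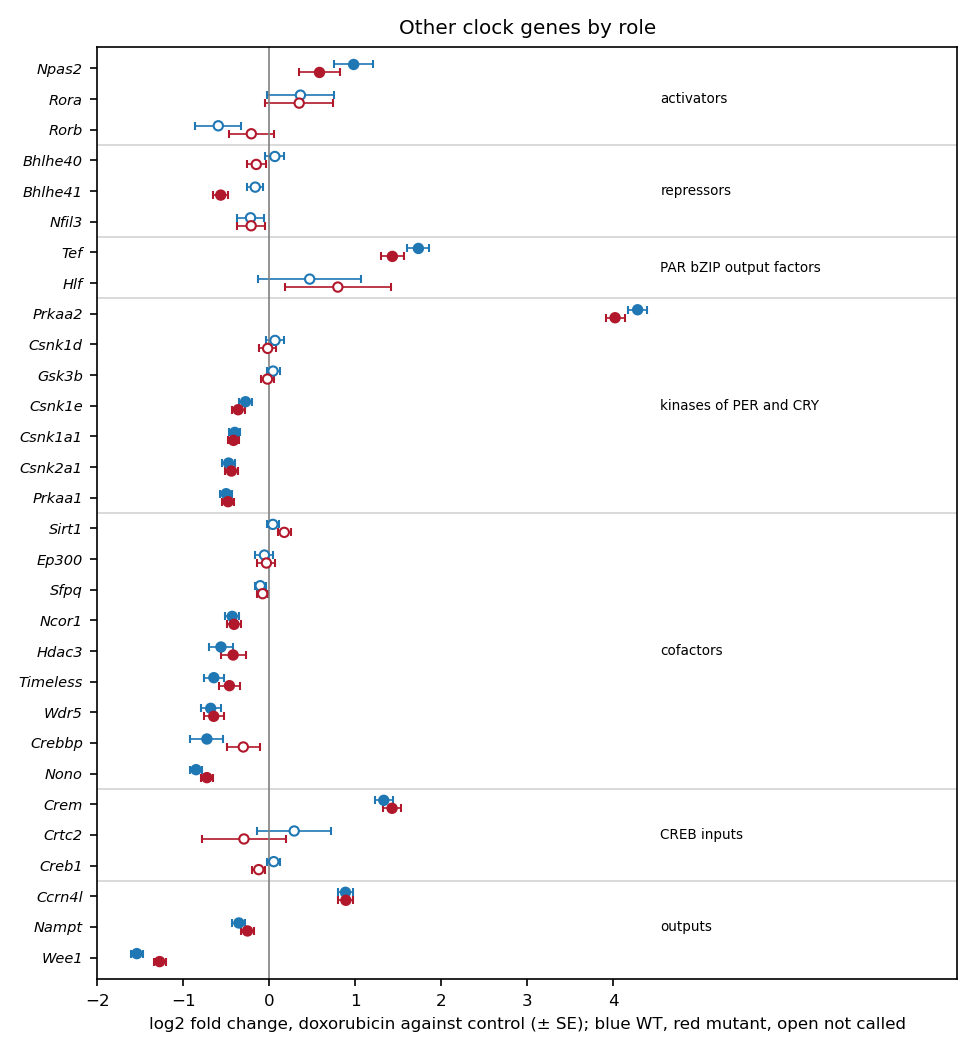
Log2 fold change of doxorubicin against control (x axis, bars of 1 SE) for other clock genes tested (y axis), grouped by role and without the ubiquitin ligase and protease group with lines between groups. Blue is WT and red mutant, and open points did not pass the adjusted p threshold of 0.05. Prkaa2 lies far right at 4.28 and 4.02, Wee1 far left at -1.54 and -1.28, and the cofactors lie mostly left of 0.

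Between genotypes, 1 of the 34 was higher in mutant control cells, the repressor gene Bhlhe41 at a log2 difference of 0.47 ± 0.09 (adjusted p = 0.00160), and with doxorubicin 2 were higher, Sirt1 at 0.29 ± 0.07 and Wee1 at 0.23 ± 0.07. These are 2.94% and 5.88% of the list, near the 2.75% and 3.92% of all genes. The 1 call in control cells was lost without WT control B, and 2 genes were called without WT doxorubicin A or B and in the 4 libraries alone. The 2 calls with doxorubicin became 1 in limma-voom, with no filter and in the 4 libraries alone. They became 0 without WT doxorubicin A, mutant doxorubicin A or mutant doxorubicin B, and 1 without any 1 of the other 5 libraries. In edgeR 0 of the 34 were called lower in either comparison, with 0 and 1 lower at an unadjusted p under 0.05, where DESeq2 had 0 and 0.

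Across the 8 libraries the genes whose log2 CPM followed Arntl most closely were Usp38 (Pearson r = 0.991), the ubiquitin ligase gene Rnf4 (r = 0.990) and the transcription factor gene Foxo1 (r = 0.988). The 8 points share the split into treated and control libraries, and 1719 of 12246 genes had an r over 0.9. Foxo1 was 8.39 ± 0.0911 and 15.3 ± 0.571 CPM in WT control and doxorubicin, and 9.74 ± 0.397 and 13.6 ± 0.446 CPM in mutant cells.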

How the data were processed

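The authors deposited raw counts of reads per gene name for the 8 libraries; reads were aligned with Bowtie2 and counted with HTSeq on mm9, tools named without versions in the submitters' processing notes. The labels name both the TruSeq RNA Access kit and 3' RNA sequencing, which was not resolved, and the annotation and strand setting are not given in the sources used here.

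The tests used edgeR 4.0.16 under R 4.3.3. After filterByExpr by group, with a minimum count of 10 and a total of 15, 12255 genes were kept. All 8 libraries, scaled by TMM, entered 1 quasi-likelihood fit with a term for each group. The Benjamini-Hochberg adjustment of the two-sided p-values ran over all kept genes, with calls below 0.05. Each SE is the absolute log2 fold change over the square root of F. Libraries A and B differed beyond sampling noise (chi-square per degree of freedom 5.71 to 18.9). The method was tested on simulated data with the same spread setting for all genes and groups, and no result here rests on that test.

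All 10 genes are named with every library. Of the wider list, the rule names called genes with an absolute log2 fold change of at least 1, and further genes named there were chosen after their values were seen. Some genes of that list are counted but not reported here. Likeness to Arntl used log2 CPM with a prior count of 2. The members and lists were chosen with earlier results of these data known. Alternatives were DESeq2 1.42.0 and its size factors, upper-quartile factors, limma-voom (limma 3.58.1), no low-count filter or one at 5 CPM before TMM scaling (2 libraries), only the 4 libraries compared, a replicate block, and leaving out each library. Overlaps and gene order come from GENCODE M21 on GRCm38, and no mm9 coordinates were used.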

Additional observations from a re-analysis of the deposited data

How the results depend on the processing

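The 3 calls with doxorubicin in WT cells kept their number under every alternative, and leaving out 1 library gave 3 to 4. In mutant cells the 5 calls became 3 with the filter of 5 CPM in 2 libraries, set before TMM scaling, which Cry2 and, by a narrow margin, Per3 do not reach, and 3 to 5 without 1 library. The difference between the responses had 0 calls throughout, leave-one-out included (0 to 0). For mutant against WT control cells the 1 call became 2, with Arntl added, under DESeq2 size factors, upper-quartile factors, no filter, the replicate block and the 4 libraries alone. It became 0 in the DESeq2 Wald test and 0 to 2 without 1 library. With the 5 CPM filter the 1 call was Arntl. For mutant against WT with doxorubicin the 1 call became 0 with the 5 CPM filter, which leaves Per3 untested, and 0 to 1 without 1 library. Other than where the filter or the smaller number of libraries accounts for it, the cause was not tested.

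The letters A and B share only a letter: deviations from the group means correlated at -0.0249 to 0.0314 over 6 pairs of groups. With the replicate block the 5 comparisons gave 3, 5, 0, 2 and 1 calls. The 4-library fit was not run for the difference, which needs all 8. Of the single log2 values, 621 kept direction and side of the threshold, 40 stayed uncalled but changed sign, 9 gained a call, 12 lost one and 0 called values reversed. Dbp, Per1 and Nr1d1 had at most 25 counts in a library, which limits what can be read from them. Whether low expression, depth or the assignment of reads keeps these counts low was not tested. Per1 to Per3, Cry2 and Nr1d1 gave no value under the 5 CPM filter, and Per1 none in the 4-library fits.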
